A study of Mus musculus with 10 samples.

Results

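The transcripts described here are those of 35 genes of cholesterol synthesis, uptake, efflux and sterol sensing, among 18055 genes listed in the deposited tables of the series. The genes were chosen by symbol for their known role, by a rule that used no measured value but with earlier results of these data known, and were matched to the tables through the NCBI gene ID. They comprised 4 genes of sterol sensing and SREBP2 control, 8 of the mevalonate and isoprenoid steps, 12 of the squalene and sterol steps, 5 of uptake and handling inside the cell, and 6 of efflux with the liver X receptors (LXRs). All 35 were among the 14097 genes that edgeR's filter on low counts retained. RNA was sequenced from primary hepatocytes, liver parenchymal cells isolated from wild-type C57BL/6 mice and cultured, with 2 libraries in each of 5 groups. Vehicle cells received no fatty acid and no NTP, PA cells received 200 μM palmitate for 24 h, and LA cells received 12 μM linoleate for 24 h. PA+NTP and LA+NTP cells received the same fatty acid after pretreatment for 1 h with NTP (Neurotropin, a drug used for chronic pain) at 0.4 NU/mL. The ages and number of the mice were not found in the labels or methods, nor whether the 2 libraries of a group came from separate cultures, so that the p-values measure the spread between these libraries, which may be technical.

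Cholesterol is made from acetyl-CoA through mevalonate, the isoprenoids, squalene and lanosterol. The transcription factor SREBP2 (Srebf2) drives most genes of this route. When sterols are scarce in the endoplasmic reticulum, the escort protein Scap carries SREBP2 to the Golgi, where it is cut and released to the nucleus. When sterols are plentiful, the Insig proteins hold Scap back. Insig1 is itself a target of SREBP2, whereas liver Insig2 is regulated in other ways. The LXRs (Nr1h2, LXRβ, and Nr1h3, LXRα) sense oxysterols and raise the exporters Abca1, Abcg1, Abcg5 and Abcg8. The liver makes cholesterol, clears it from plasma and secretes it into bile through the pair Abcg5 and Abcg8.

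RefSeq start windows, 250 bases before to 50 bases after a start in GRCm38.p6, were matched for 28 of the 35 genes. No window was matched for Abcg1, Fdft1, Fdps, Scarb1, Soat2, Sqle and Stard4. The windows were searched on both strands for one form of the sterol regulatory element, TCACNCCAC, and for the NF-Y box CCAAT, the site of a factor that acts together with SREBP2. The first was found in 1 of the 28 genes (3.57%), Hmgcs1, and in 1.44% of the 27025 genes with a window. CCAAT was found in 22 of 28 (78.6%), compared with 41.1% of all genes. A match is a description of letters and not a binding site. Hmgcs1, Insig1 and Cyp51 are shown because they were lower in PA+NTP than in LA+NTP cells, as described further on, and the stretch between the starts of Abcg5 and Abcg8 because both genes are read outward from it. Each sequence is written 5′ to 3′ on the strand of its gene (the plus strand for the last), ends at the base before a start, and has the searched letters in capitals.
Hmgcs1: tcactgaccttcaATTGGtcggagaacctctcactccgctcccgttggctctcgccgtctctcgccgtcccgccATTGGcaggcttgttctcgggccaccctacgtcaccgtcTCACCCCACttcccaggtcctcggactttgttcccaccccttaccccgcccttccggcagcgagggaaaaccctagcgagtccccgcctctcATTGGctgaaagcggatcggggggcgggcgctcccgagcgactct
Insig1: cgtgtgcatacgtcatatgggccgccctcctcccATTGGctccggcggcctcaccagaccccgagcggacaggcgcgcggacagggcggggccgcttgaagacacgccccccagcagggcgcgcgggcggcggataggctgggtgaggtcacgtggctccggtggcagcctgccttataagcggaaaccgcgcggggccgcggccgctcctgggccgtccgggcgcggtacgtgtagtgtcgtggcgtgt
Cyp51: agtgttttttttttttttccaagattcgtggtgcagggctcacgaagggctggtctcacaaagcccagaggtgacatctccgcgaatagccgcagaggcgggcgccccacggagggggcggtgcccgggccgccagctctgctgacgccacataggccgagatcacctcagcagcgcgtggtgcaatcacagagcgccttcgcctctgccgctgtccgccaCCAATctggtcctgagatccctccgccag
Abcg5 and Abcg8: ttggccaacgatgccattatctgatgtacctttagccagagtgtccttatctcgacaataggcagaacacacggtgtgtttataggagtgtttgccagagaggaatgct
The Hmgcs1 stretch lies at chr13:119690101-119690350 (plus strand), and its element begins 137 bases before the start. The Insig1 stretch lies at chr5:28071162-28071411 (plus strand) and the Cyp51 stretch at chr5:4104698-4104947 (minus strand). The 109 bases between the start of Abcg5 (minus strand) and that of Abcg8 (plus strand) lie at chr17:84683012-84683120, and neither motif was found in them. A CCAAT ends at the base just before this stretch and lies in the windows of both genes, which share 209 bases. Both genes are among the 22 with CCAAT.

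The libraries held between 13142588 and 60046937 expected counts. Library values varied with transcript GC content. Over 13408 tested genes, each gene's departure from its own average across libraries correlated with GC content at a Spearman's rho of -0.487 to -0.485 in the PA libraries and -0.576 to -0.572 in the LA libraries, and at 0.348 to 0.575 in the other 6. Genes do not count as replicates here, so no p is given. The hepatocyte marker albumin was abundant, at an FPKM of 1929 to 2818, whereas Cps1, a urea cycle gene abundant in liver, read 1.52 to 4.61 and Cyp7a1 at most 0.02. The summed FPKM of 8 hepatocyte markers was 3120 to 3310 in Vehicle, 2210 to 2440 in PA, 2680 to 2990 in PA+NTP, 3150 to 3190 in LA and 3720 to 3940 in LA+NTP. Lymphocyte markers summed to at most 0.22 in any library. Endothelial markers summed to 38.2 to 38.3 in Vehicle, 28.3 to 29.6 in PA, 30.2 to 34.6 in PA+NTP, 29.4 to 32.4 in LA and 38.8 to 41.4 in LA+NTP, and bile duct markers to 11 to 13.0, 7.68 to 8.1, 12.4 to 13.0, 9.67 to 9.98 and 14.5 to 14.6 in the same order. Stellate cell markers summed to 19.4 to 23.6 in all libraries. The 7 macrophage markers other than Cd68 summed to 4.25 to 9.02, and with palmitate Marco rose (edgeR log2 fold change 2.46 ± 0.33, SE, adjusted p = 4.29e-05) and Cd5l fell (-1.11 ± 0.20, SE, adjusted p = 0.000475). Marco read 0.67 and 0.58 in Vehicle, 3.95 and 2.9 in PA, 3.36 and 4.59 in PA+NTP, 0.42 and 0.94 in LA and 0.95 and 0.75 in LA+NTP, whereas Cd5l read 2.84 and 2.7 in Vehicle, 1.16 and 1.31 in PA, 2.11 and 1.98 in PA+NTP, 2.66 and 2.69 in LA and 2.89 and 3.94 in LA+NTP. Cd68 read 122 to 287 in all libraries and fell with linoleate (-0.67 ± 0.08, SE, adjusted p = 2.45e-05). The part of these cells in the results was not tested. Fewer cells of a type and less RNA per cell cannot be told apart in such bulk samples.

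In Vehicle cells the 35 transcripts ranged widely on the FPKM scale, which is per length. Of the 35, 33 were at or above an FPKM of 1 and 20 at or above 10. The highest was Sc5d, a late sterol desaturase (63.4 ± 2.81, SD, n = 2), followed by Insig2 (55.1 ± 1.35, SD, n = 2) and Fdps, which makes farnesyl diphosphate (54.7 ± 1.74, SD, n = 2). Insig2 and Fdps did not differ beyond their spread. Mylip, a ubiquitin ligase induced by the LXRs, and Abcg1 were lowest, Mylip at 0.48 and 0.45 in the 2 libraries and Abcg1 at 0.48 and 0.59. Abcg5 and Abcg8 were also low, so their values rest on fewer reads than those of the synthesis genes. In the annotation, exons share bases with another gene on the opposite strand in Scap (985), Fdft1 (774, with Ctsb), Hmgcs1 (557), Lbr (440, with Dnah14) and Lss (381). The same holds for Idi1 (323), Ggps1 (257, with Arid4b), Cyp51 (166, with Akap9), and Abcg5 and Abcg8 (82, with each other). On the same strand bases are shared in Fdps (1124), Tm7sf2 (532), Lbr (69) and Nr1h3 (34). Reads in all these stretches may be split.

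**Figure D1:**
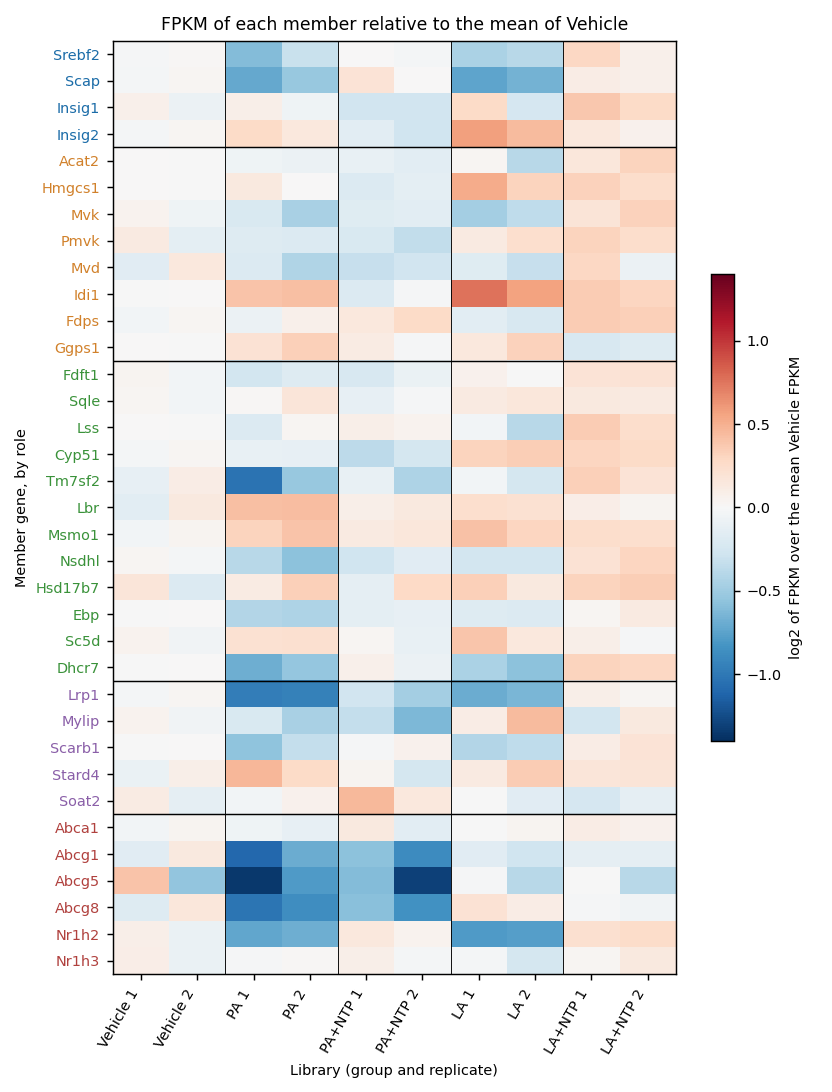
Each row is one of the 35 genes, grouped and colored by role from sterol sensing (top) to efflux and LXR (bottom), and each column is one of the 10 libraries. Color gives the log2 of the FPKM over the mean Vehicle FPKM, red for higher and blue for lower. Scap, Lrp1 and Nr1h2 were blue in all 4 libraries given a fatty acid alone, and Abcg1, Abcg5 and Abcg8 were blue in all 4 libraries given palmitate. Abcg1 and Abcg5 also lay below the Vehicle mean in all 4 libraries given linoleate.

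Palmitate was compared with Vehicle first. Genes were called where the edgeR quasi-likelihood test gave an adjusted p (Benjamini-Hochberg) under 0.05 together with a fold change of at least 1.5. With PA, 7 of the 35 genes were called lower, compared with 8.92% of all tested genes. These were the exporters Abcg1, Abcg5 and Abcg8, the LXR gene Nr1h2, the receptor Lrp1, the sterol reductase Tm7sf2 and the SREBP escort Scap. In the other direction 0 were called by edgeR and 0 by DESeq2 (6.0% of all genes), although 7 were higher at an unadjusted p under 0.05. At the adjusted p alone, 12 genes were lower (22.0% of all genes) and 7 higher (23.5%). Without the second Vehicle library 4 were called lower and 1 higher, and without the first PA library 3 were called lower. The median log2 fold change over the 35 was -0.08, beside -0.01 for all tested genes.

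Abcg8, which exports sterols into bile, had an FPKM of 1.22 and 1.55 in Vehicle and 0.68 and 0.76 in PA. Both PA libraries lay below both Vehicle libraries, as they did in 38.9% of all tested genes. The log2 fold change of Abcg8 was -0.90 ± 0.20, SE, adjusted p = 0.00194. It was called without any single library and after the GC trend was removed (-0.75), and was under the fold threshold on the log2(FPKM + 1) scale (-0.47). Abcg5, its partner in the canalicular exporter, had 2.15 and 1.11 in Vehicle and 0.64 and 0.94 in PA. The groups again did not overlap, but the 2 Vehicle libraries lay far apart. Its log2 fold change was -0.92 ± 0.35, SE, adjusted p = 0.0415, and the call was lost without the first Vehicle library (-0.40, adjusted p = 0.443), the first PA library (adjusted p = 0.165) or the second (0.0690), and without either LA library (0.0516 and 0.0508). It was also lost in limma on log2(FPKM + 1) (0.0528) and on log2(FPKM + 0.1) (0.0508), with the numbers of the deposited files as a block (-0.66, 0.128) and after the GC trend was removed (0.0781). Exons of Abcg5 and Abcg8 share 82 bases on opposite strands in the annotation, and whether the counting used the strand is not stated.

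Abcg1, which exports cholesterol to HDL, had an FPKM of 0.48 and 0.59 in Vehicle and 0.25 and 0.33 in PA. All 4 values were low and the groups did not overlap. The log2 fold change was -0.83 ± 0.25, SE, adjusted p = 0.0136, and the call was lost without Vehicle library 2 (adjusted p = 0.125) or the first PA library (0.0663), after the GC trend was removed (0.0617), and on the log2(FPKM + 1) scale, where the change of a low gene is understated (-0.25). Abca1, the main exporter to lipid-poor ApoA-I, had 15.6 and 16.4 in Vehicle and 15.3 and 14.8 in PA, and its log2 fold change of -0.06 ± 0.08, SE, adjusted p = 0.579 did not pass. Of the receptors, Nr1h2 fell from 33.6 and 29.7 to 19.1 and 19.6 (-0.67 ± 0.07, SE, adjusted p = 8.96e-06). Nr1h3, the gene of LXRα, read 18.6 and 16.3 and then 17.3 and 17.7 (0.04 ± 0.10, SE, adjusted p = 0.766) and did not pass. After the GC trend was removed Nr1h2 changed by -0.20, under the fold threshold, as it was without the first Vehicle library (-0.58). In the same libraries the hepatocyte factor Hnf4a fell (-0.73 ± 0.06, SE, adjusted p = 1.4e-06), and its part in these results was not tested.

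**Figure D2:**
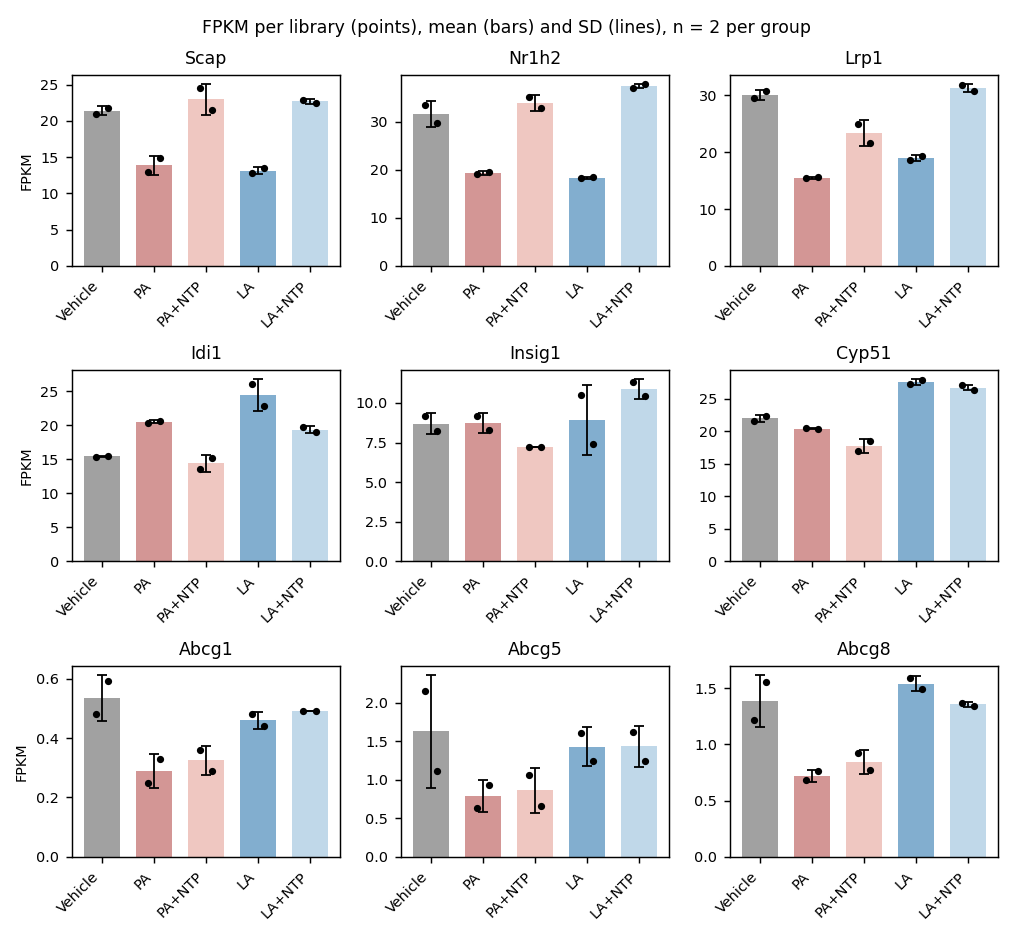
FPKM of 9 genes (vertical axes, each from 0) in the 5 groups, with a point per library, bars for the mean and lines for the SD of n = 2. Scap, Nr1h2 and Lrp1 were lower in PA and LA than in Vehicle, while Abcg8 was lower in PA and PA+NTP but not in LA, where it read 1.59 and 1.49.

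Lrp1, a large endocytic receptor that takes up remnant lipoproteins, had an FPKM of 29.5 and 30.7 in Vehicle and 15.4 and 15.6 in PA. No value overlapped, and the log2 fold change was close in size to those of Abcg5 and Abcg8 (-0.93 ± 0.06, SE, adjusted p = 2.22e-07). It was called with every single library left out and after the GC trend was removed (-0.62). Scarb1, the HDL receptor, read 25.6 and 25.8 and then 17.3 and 20.4, lower at the adjusted p but under the fold threshold (-0.40 ± 0.08, SE, adjusted p = 0.000875). Stard4, which moves cholesterol between membranes, was higher at the adjusted p by 0.38 on the log2 scale (adjusted p = 0.0347). Soat2, which esterifies cholesterol, and Mylip did not pass (0.06 ± 0.11, SE, adjusted p = 0.721; -0.31 ± 0.34, SE, adjusted p = 0.488).

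The sensing genes did not move together with palmitate. Scap fell from 21 and 21.8 to 13 and 14.8 (-0.59 ± 0.08, SE, adjusted p = 2.72e-05). Both PA libraries lay below both Vehicle libraries. Without Vehicle library 2 (-0.57) or the first PA library (-0.51) the fold was under 1.5, as it was after the GC trend was removed (-0.35), with adjusted p under 0.05 in each case. Srebf2 read 15.1 and 15.4 in Vehicle and 10 and 12.3 in PA, lower at the adjusted p but under the fold threshold (-0.40 ± 0.09, SE, adjusted p = 0.00238). Insig2 was higher at the adjusted p by 0.24 on the log2 scale (adjusted p = 0.0102). Insig1 had 9.15 and 8.23 and then 9.2 and 8.31 and did not pass (0.04 ± 0.13, SE, adjusted p = 0.854).

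Of the 20 synthesis genes, 1 was called lower with palmitate, Tm7sf2, one of the C14 sterol reductases. It read 4.08 and 4.75 in Vehicle and 2.15 and 3.05 in PA (-0.68 ± 0.19, SE, adjusted p = 0.0104). This call did not hold without Vehicle library 2 (-0.56, adjusted p = 0.0971) or the first PA library (-0.51, 0.0680) and after the GC trend was removed (0.101), and its exons share 532 bases with Vps51 on the same strand. Lbr, the other C14 reductase, was higher at the adjusted p and under the fold threshold, from 3.68 and 4.49 to 5.46 and 5.51 (0.45 ± 0.10, SE, adjusted p = 0.00292). The late enzymes also differed in direction. Dhcr7, the last step before cholesterol, read 17.6 and 17.6 in Vehicle and 10.9 and 12.1 in PA (-0.57 ± 0.08, SE, adjusted p = 5.26e-05). Nsdhl, a C4 decarboxylase, and Ebp, a sterol isomerase, were lower at the adjusted p by 0.46 and 0.39 on the log2 scale. Msmo1, a C4 methyl oxidase, Idi1, the isopentenyl diphosphate isomerase, Ggps1, which makes geranylgeranyl diphosphate, and Sc5d were higher at the adjusted p, by 0.39, 0.44, 0.31 and 0.25. Hmgcs1, which makes HMG-CoA, Sqle, the squalene epoxidase, and Cyp51, the lanosterol demethylase, did not pass (0.10, 0.13 and -0.08).

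These differences in direction went in part with GC content. Across the 35 genes the log2 fold change with palmitate correlated with the GC content of the transcripts at a Spearman's rho of -0.648, and across all genes with a value at -0.528. The points share libraries, so no p is given. The 18 genes at or above the median GC content of 51.9% had a median log2 fold change of -0.40, and the 17 below it 0.13. Nsdhl and Ebp lay below this median GC content, at 45.4% and 49.1%, and yet were lower with palmitate. Both stayed lower at the adjusted p with the GC trend removed (-0.68 and -0.47). With the GC trend removed, 3 genes were called lower with palmitate, namely Lrp1 (-0.62), Abcg8 (-0.75) and Nsdhl (-0.68). They stood beside 5.61% of all genes lower and 3.22% higher. In the other direction 0 genes were called by edgeR after this removal, with 4 at an unadjusted p under 0.05. The share of all genes at the unadjusted p was not counted under this setting, here or in the comparisons below.

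Linoleate at 12 μM was then compared with the same Vehicle libraries. With LA, 1 gene was called higher, Idi1 (3.53% of all genes), and 3 lower, Nr1h2, Scap and Lrp1 (7.11% of all genes). Without the second Vehicle or the second LA library 2 were called higher. On adjusted p alone, 8 genes were higher (20.8% of all genes) and 7 lower (20.5%). Idi1 rose from 15.4 and 15.5 in Vehicle to 26.1 and 22.8 in LA (0.71 ± 0.08, SE, adjusted p = 1.86e-05). Scap fell to 12.8 and 13.5 (-0.67 ± 0.07, SE, adjusted p = 1.36e-05), Nr1h2 to 18.2 and 18.5 (-0.74 ± 0.07, SE, adjusted p = 6.13e-06) and Lrp1 to 18.6 and 19.3 (-0.62 ± 0.06, SE, adjusted p = 7.03e-06). The LA libraries lay apart from the Vehicle libraries for each of the 4 genes, and each was called without any single library. Of all tested genes, 31.6% lay apart as higher and 39.2% as lower.

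Other genes of cholesterol synthesis, uptake and sterol sensing changed in both directions with linoleate, at the adjusted p and under the fold threshold. Insig2 read 82.1 and 74.9 in LA, above 54.1 and 56 in Vehicle (0.56 ± 0.07, SE, adjusted p = 2.61e-05). Hmgcs1 read 62.2 and 53.8, above 43.6 and 42.9 (0.47 ± 0.08, SE, adjusted p = 0.000211). Cyp51 read 27.2 and 27.9, above 21.6 and 22.4 (0.37 ± 0.06, SE, adjusted p = 0.000331). Msmo1, Sc5d, Ggps1 and Sqle were higher by 0.40, 0.32, 0.27 and 0.19 on the log2 scale. Srebf2 (-0.37), Dhcr7 (-0.46), Mvk, the mevalonate kinase (-0.37), and Scarb1 (-0.34) were lower. Insig1 (0.10 ± 0.13, SE, adjusted p = 0.578) and the exporters Abca1 (0.06), Abcg1 (-0.18), Abcg5 (-0.11) and Abcg8 (0.19) did not pass.

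The dependence on GC content was also seen with linoleate, with a rho of -0.727 across the 35 genes and -0.646 across all genes. After the GC trend was removed, edgeR called 0 genes in either direction (1.09% of all genes higher and 2.55% lower). At an unadjusted p under 0.05, 9 were higher and 6 lower, with no share of all genes counted. Under this setting Idi1 changed by 0.28 (adjusted p = 0.0282), Scap by -0.41 (0.00152), Nr1h2 by -0.23 (0.0365) and Lrp1 by -0.29 (0.0048). They kept their direction and fell under the fold threshold. Removal of a trend on transcript length also took Lrp1 with linoleate under it (-0.56). After GC removal Insig2 (0.41), Hmgcs1 (0.23) and Cyp51 (0.185) stayed higher at the adjusted p (0.00119, 0.0414 and 0.0453). Msmo1, Sc5d, Ggps1 and Sqle (0.14, 0.08, 0.002 and 0.08) no longer passed. Of the lower genes, Dhcr7 passed (-0.38, adjusted p = 0.00371), and Srebf2 (-0.02), Scarb1 (-0.16) and Mvk (0.04) did not.

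**Figure D3:**
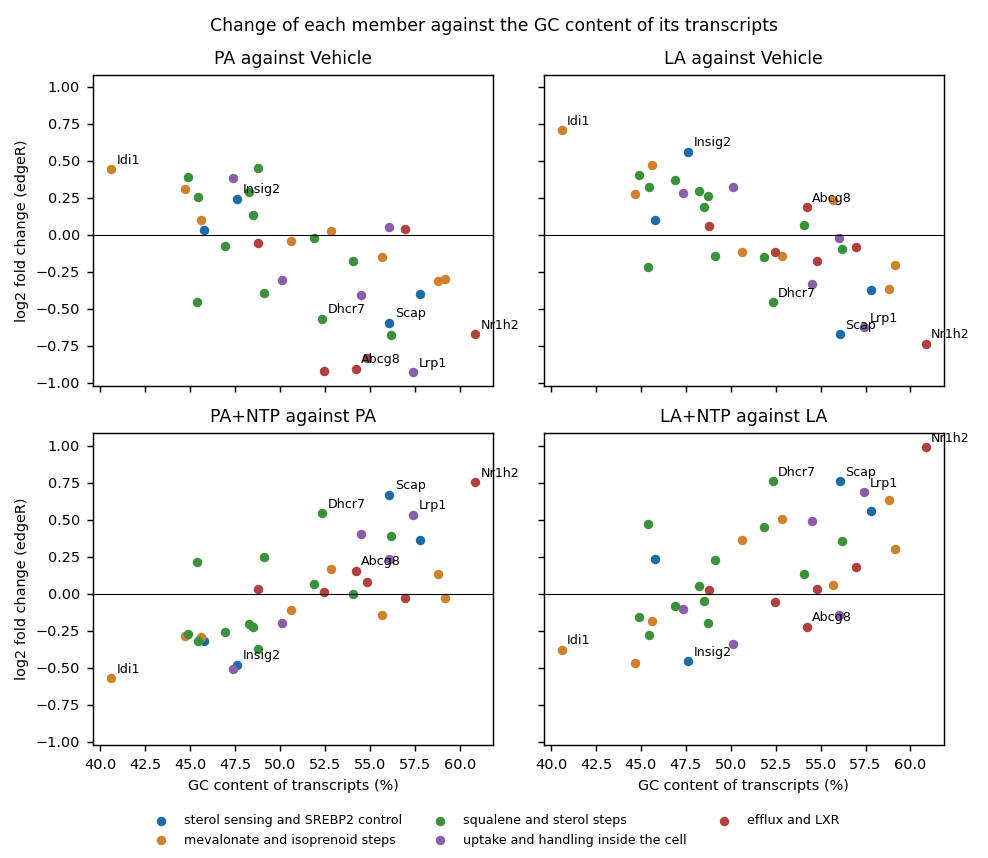
Each point is one of the 35 genes, colored by role, with the GC content of its transcripts on the horizontal axis (%) and its log2 fold change on the vertical axis, in 4 comparisons. The points slope down with PA and LA (rho -0.648 and -0.727) and up with NTP over PA and LA (rho 0.713 and 0.634), with Idi1 at the low GC end and Nr1h2 at the high end.

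NTP with palmitate was compared with palmitate alone. With NTP, 2 genes were called higher, Nr1h2 and Scap (8.74% of all genes). In the other direction 0 were called by edgeR and 0 by DESeq2 (5.11% of all genes), with 11 lower at an unadjusted p under 0.05. Without the first PA library 1 gene was called higher, without the second PA or the second PA+NTP library 4, and without any of the second PA, the first PA+NTP and the second PA+NTP library 1 was called lower. At the adjusted p alone, 7 were higher (21.7% of all genes) and 10 lower (23.0%). Nr1h2 read 35.2 and 32.8 in PA+NTP, above 19.1 and 19.6 in PA (0.75 ± 0.07, SE, adjusted p = 3.23e-06). Scap read 24.5 and 21.5, above 13 and 14.8 (0.67 ± 0.07, SE, adjusted p = 8.97e-06), and its fold was under 1.5 without the first PA library (0.58 on the log2 scale). The comparison shares the PA libraries with that of PA against Vehicle, so the same 2 libraries enter both.

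Lrp1 and Dhcr7 were higher with NTP at the adjusted p and under the fold threshold. Lrp1 read 25 and 21.7 in PA+NTP (0.53 ± 0.06, SE, adjusted p = 1.61e-05) and Dhcr7 18.5 and 16.7 (0.54 ± 0.08, SE, adjusted p = 6.74e-05). Both PA+NTP libraries of Lrp1 lay above both PA libraries (38.2% of all genes) and below both Vehicle libraries (21.9%). Scarb1, Srebf2 and Ebp were also higher, by 0.41, 0.36 and 0.24. The lower genes were led by Idi1 (-0.57 ± 0.08, SE, adjusted p = 7.83e-05), Stard4 (-0.51 ± 0.14, SE, adjusted p = 0.00686) and Insig2 (-0.48 ± 0.07, SE, adjusted p = 7.37e-05), and included Lbr, Sc5d, Hmgcs1, Ggps1, Msmo1, Cyp51 and Sqle, from -0.37 to -0.22. The exporters that were lower with palmitate read 0.92 and 0.77 (Abcg8), 1.07 and 0.66 (Abcg5) and 0.36 and 0.29 (Abcg1) in PA+NTP, and did not pass against PA (0.15 ± 0.20, SE, adjusted p = 0.57; 0.01 ± 0.36, SE, adjusted p = 0.985; 0.08 ± 0.25, SE, adjusted p = 0.833). With the GC trend removed, edgeR called 0 genes in either direction (4.31% of all genes higher and 2.1% lower), and Nr1h2 changed by 0.26 and Scap by 0.41. At an unadjusted p under 0.05, 7 were then higher and 7 lower, with no share of all genes counted.

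NTP with linoleate was compared with linoleate alone, and 5 genes were called higher (11.7% of all genes). In the other direction 0 were called by edgeR and 0 by DESeq2 (7.57% of all genes), with 6 lower at an unadjusted p under 0.05. On adjusted p alone, 12 were higher (25.9% of all genes) and 5 lower (25.6%). Nr1h2 rose to 37.1 and 37.8 from 18.2 and 18.5 (0.99 ± 0.07, SE, adjusted p = 1.91e-07), Scap to 22.9 and 22.5 from 12.8 and 13.5 (0.76 ± 0.07, SE, adjusted p = 1.68e-06) and Lrp1 to 31.9 and 30.8 from 18.6 and 19.3 (0.68 ± 0.06, SE, adjusted p = 1.19e-06). The 2 enzymes called were Dhcr7, at 21.8 and 21.5 in LA+NTP and 13 and 11.9 in LA (0.76 ± 0.07, SE, adjusted p = 1.81e-06), and Mvk, at 6.69 and 7.38 in LA+NTP and 4.24 and 4.6 in LA (0.64 ± 0.13, SE, adjusted p = 0.000707). In these 5 genes both LA+NTP libraries exceeded both LA libraries in FPKM, as they did in 41.3% of all tested genes. Mvk was under the fold threshold without the first LA library (0.57) or the second LA+NTP library (0.55) and on the log2(FPKM + 1) scale (0.57).

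A further 7 genes were higher at the adjusted p and under the fold threshold, namely Srebf2, Fdps, Scarb1, Nsdhl, Lss, the lanosterol synthase, Acat2, which makes acetoacetyl-CoA, and Ebp, from 0.56 (Srebf2) down to 0.22 (Ebp) on the log2 scale. Ggps1, Insig2, Idi1, Sc5d and Msmo1 were lower, from -0.47 to -0.16. After the GC trend was removed, 2 genes were called higher, Nsdhl (0.78) and Dhcr7 (0.66), beside 4.35% of all genes, and 0 lower (1.99%). At an unadjusted p under 0.05, 5 were lower, with no share of all genes counted. Under that setting Nr1h2 changed by 0.35, Scap by 0.43, Lrp1 by 0.26 and Mvk by 0.12 (adjusted p = 0.513). Idi1, Msmo1 and Sc5d turned from below to above 0 (0.15, 0.18 and 0.03), and of these only Msmo1 passed (adjusted p = 0.0424). Insig1 and Soat2 did not pass before the removal (0.23, adjusted p = 0.14, and -0.14, 0.288). After it Insig1 was higher (0.52, adjusted p = 0.00666) and Soat2 lower (-0.47, 0.0041).

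The NTP groups were also set against Vehicle. In PA+NTP cells 1 gene was called lower, Abcg8 (1.64% of all genes), at 0.92 and 0.77 beside 1.22 and 1.55 in Vehicle (-0.75 ± 0.19, SE, adjusted p = 0.0215). The call did not hold when the second PA+NTP library (-0.65, adjusted p = 0.105) or Vehicle library 2 (-0.56, 0.233) was left out, in a fit of the compared groups alone (0.0672) and in limma on log2(FPKM + 0.1) (0.0514). No gene was called higher, 0 by edgeR and 0 by DESeq2 (1.21% of all genes), with 2 higher at an unadjusted p under 0.05. At the adjusted p alone, 4 genes were lower (5.61% of all genes lower and 4.5% higher), Lrp1 (-0.39 ± 0.06, SE, adjusted p = 0.00138), Cyp51 (-0.33 ± 0.06, SE, adjusted p = 0.00423), Insig2 (-0.24 ± 0.07, SE, adjusted p = 0.0448) and Abcg8. Of the 35 genes, 24 lay below Vehicle and 11 above it (31.4%), compared with 51.7% of all genes above it. The median was -0.13, beside 0.01 for all genes.

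In LA+NTP cells 0 genes were called against Vehicle in either direction by edgeR and 0 by DESeq2, at either threshold in edgeR, beside 0.0567% of all genes higher and 0.0355% lower (0.192% and 0.0922% at the adjusted p alone). At an unadjusted p under 0.05, 15 of the 35 were higher and 0 lower, compared with 2014 of all 14097 tested genes in either direction. Of the 35 genes, 29 lay above Vehicle (82.9%), compared with 50.7% of all genes, and their median log2 fold change was 0.17, compared with 0.003. Of the 20 synthesis genes, 19 lay above Vehicle, with Ggps1 as the exception (-0.19 ± 0.09, SE, adjusted p = 0.362). In 25 of the 35 genes both LA+NTP libraries exceeded both Vehicle libraries in FPKM, which was so for 24.4% of all genes. Fdps had 70 and 69.1 in LA+NTP and 53.4 and 55.9 in Vehicle (0.36 ± 0.07, SE, adjusted p = 0.0545), and Cyp51 had 27.1 and 26.4, above 21.6 and 22.4 (0.28 ± 0.06, SE, adjusted p = 0.0667). The same Vehicle libraries enter all 35 values, which are therefore not independent. With the GC trend removed 27 of 35 lay above Vehicle, with a median of 0.15, and the share of all genes above it was not counted.

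The difference in NTP effect between the fatty acids was tested as an interaction. It called 0 of the 35 genes and 0.0% of all genes higher, and 0.0% lower, with edgeR, and DESeq2 called 5 genes among all tested and 0 of the 35. At an unadjusted p under 0.05, edgeR gave 1029 genes in all and 9 of the 35, of which the effect under palmitate minus that under linoleate was positive in 1 and negative in 8.

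**Figure D4:**
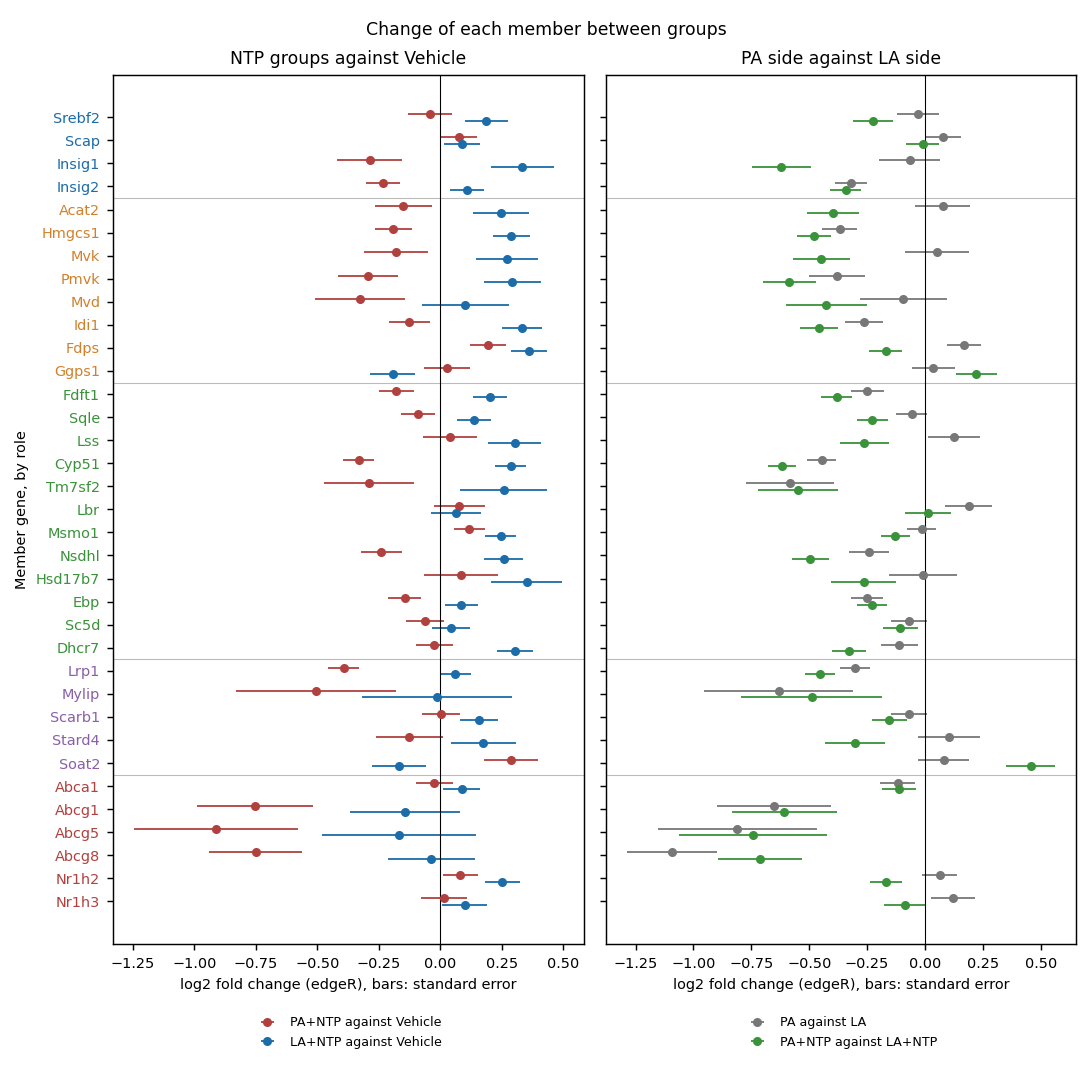
Log2 fold changes (horizontal axes, points) with their standard errors (lines) for the 35 genes by role, with PA+NTP and LA+NTP against Vehicle on the left and PA against LA and PA+NTP against LA+NTP on the right. On the left most blue points (LA+NTP) lie above 0 and most red points (PA+NTP) below it, and on the right 32 of the 35 green points (PA+NTP against LA+NTP) lie below 0.

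The palmitate groups were compared with the linoleate groups directly. The doses were not matched, 200 μM against 12 μM, so that the fatty acid and its dose cannot be told apart. Without NTP, 1 gene was called lower with PA than with LA, Abcg8 (2.04% of all genes), and 0 higher by edgeR and by DESeq2 (1.18%), with 1 higher at an unadjusted p under 0.05. Abcg8 read 0.68 and 0.76 in PA and 1.59 and 1.49 in LA, with no overlap (-1.09 ± 0.20, SE, adjusted p = 0.00266). Without either PA+NTP library, which enters this comparison only through the shared estimate of the spread, 2 genes were called lower. On the log2(FPKM + 1) scale Abcg8 was under the fold threshold (-0.56). It was called without any single library and after the GC trend was removed (-1.10), when it was again the 1 gene called lower (2.01% of all genes) and 0 were higher by edgeR (1.16%), with 1 at an unadjusted p under 0.05. On adjusted p alone, 7 genes were lower (5.54% of all genes) and 0 higher (5.59%). Beside Abcg8 these were Cyp51 (-0.45 ± 0.06, SE, adjusted p = 0.000491), Hmgcs1 (-0.37 ± 0.08, SE, adjusted p = 0.0065), Insig2 (-0.32 ± 0.07, SE, adjusted p = 0.00897), Lrp1, Fdft1, the squalene synthase, and Ebp (-0.30, -0.25 and -0.25).

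With NTP, 4 genes were called lower in PA+NTP than in LA+NTP cells, Abcg8, Insig1, Cyp51 and Pmvk (2.45% of all genes). In the other direction 0 were called by edgeR and by DESeq2 (1.38%), with 2 higher at an unadjusted p under 0.05. This comparison was added after the values of both NTP groups against Vehicle had been seen. At the adjusted p alone, 16 of the 35 were lower (7.77% of all genes) and 1 was higher, Soat2 (6.99% of all genes). Insig1, the target of SREBP2 that restrains it, read 7.2 and 7.24 in PA+NTP and 11.3 and 10.4 in LA+NTP (-0.62 ± 0.13, SE, adjusted p = 0.00473). Cyp51 read 17 and 18.5 in PA+NTP and 27.1 and 26.4 in LA+NTP (-0.62 ± 0.06, SE, adjusted p = 2.66e-05), and Pmvk, the phosphomevalonate kinase, 8.02 and 7.32 in PA+NTP and 11.5 and 11 in LA+NTP (-0.59 ± 0.12, SE, adjusted p = 0.00371). Abcg8 read 0.92 and 0.77 in PA+NTP and 1.37 and 1.34 in LA+NTP (-0.71 ± 0.18, SE, adjusted p = 0.0171). The groups did not overlap for any of the 4, and 23.4% of all tested genes lay lower without overlap.

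These calls lay close to the thresholds. Without the second PA+NTP library 2 of the 35 were called lower, and without the first LA+NTP library 1. Insig1 fell under 1.5-fold without the first LA+NTP library (-0.57) and with the numbers of the deposited files as a block (-0.53), Cyp51 without the first PA+NTP library (-0.53), and Pmvk without the second PA+NTP library (-0.54) or the first LA+NTP library (-0.56) and with library-size scaling, DESeq2, or the GC or length trend removed (-0.56, -0.58, -0.54 and -0.58). Abcg8 lost its call without the second PA+NTP library (adjusted p = 0.101), the first LA+NTP library (0.0875) or the second (0.0738), and in a fit of the compared groups alone (0.0574). On the log2(FPKM + 1) scale, all 4 were under 1.5-fold. After the GC trend was removed 3 genes were called lower (2.26% of all genes) and 0 higher by edgeR (1.31%), with 1 higher at an unadjusted p under 0.05.

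Of the 20 synthesis genes, 12 were lower at the adjusted p in PA+NTP than in LA+NTP cells, Cyp51 and Pmvk among them, and 8 did not pass. Nsdhl read 16.6 and 18 in PA+NTP and 23.1 and 24.7 in LA+NTP (-0.50 ± 0.08, SE, adjusted p = 0.0009), Hmgcs1 37.8 and 39.3 in PA+NTP and 54.1 and 51.2 in LA+NTP (-0.48 ± 0.07, SE, adjusted p = 0.000702), and Idi1 13.6 and 15.2 in PA+NTP and 19.8 and 19 in LA+NTP (-0.46 ± 0.08, SE, adjusted p = 0.00182). In 17 of the 20 synthesis genes both PA+NTP libraries lay below both LA+NTP libraries, as they did in 28 of all 35 genes and in 23.4% of all tested genes. Fdft1 and Acat2 were lower by 0.38 and 0.40 on the log2 scale, and Dhcr7 by 0.33. Ggps1 and Lbr were the 2 synthesis genes above 0 and did not pass (0.22 and 0.01). Soat2, which stores cholesterol as ester, was higher at the adjusted p, at 15.5 and 12.5 in PA+NTP and 9.61 and 10.4 in LA+NTP, with overlap absent (0.46 ± 0.11, SE, adjusted p = 0.0101). Srebf2 (-0.23 ± 0.09, SE, adjusted p = 0.0985) and Scap (-0.01 ± 0.07, SE, adjusted p = 0.947) did not pass. The median over the 35 genes was -0.33, beside 0.01 for all genes, and across the 35 the changes did not follow GC content (rho 0.007, beside -0.224 across all genes).

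The 2 comparisons of a palmitate group with a linoleate group, without and with NTP, share no library. Of the 35 genes, 24 lay below 0 in the former and 32 in the latter, and 24 in both, compared with 47.4% and 48.4% of all genes below 0. The 7 genes lower at the adjusted p without NTP were also lower at the adjusted p with NTP, which is the whole of the first list and 43.8% of the second. For all tested genes the shared lower genes made up 73.2% of the 781 and 52.2% of the 1096. In 15 of the 35 genes both PA libraries lay below both LA libraries, which held for 22.5% of all genes. The hepatocyte sum and the macrophage marker Cd5l were lower, and the macrophage marker Marco higher, in each palmitate group than in the matching linoleate group, by the values given above. Cd68 was higher as well, without NTP (0.78 ± 0.08, SE, adjusted p = 5.09e-05) and with it (0.54 ± 0.08, SE, adjusted p = 0.000435). Adgre1 was higher with NTP (1.41 ± 0.32, SE, adjusted p = 0.00871) and did not pass without it (0.79, adjusted p = 0.184). Csf1r and Clec4f did not pass in either comparison. Of the 8 hepatocyte markers, Alb, Ttr, Apoa1 and Hnf4a were lower at the adjusted p in both comparisons, and Tat and Cps1 only with NTP. Asgr1 and Cyp2e1 did not pass in either. The part of these in the differences was not tested.

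A set of 42 related genes was taken as 7 lists by role, and 41 passed the filter. With palmitate 3 were called higher and 1 lower, with linoleate 1 was called higher, with NTP over palmitate 4 lower, and with NTP over linoleate 2 higher and 4 lower, beside the shares of all genes given above. In PA+NTP against Vehicle 1 was called lower, in PA against LA 1 higher, and in PA+NTP against LA+NTP 0 by edgeR, where 7 were lower at the adjusted p. Of the 6 genes reported of the SREBP proteases and sterol-regulated degradation, 5 were higher at the adjusted p with palmitate (23.5% of all genes) and 5 with linoleate (20.8%), and 5 were lower with NTP over palmitate (23.0%) and 5 over linoleate (25.6%). After the GC trend was removed these counts were 3, 3, 2 and 3, where the share of all genes at the adjusted p alone was not counted. Of 7 genes of isoprenoid use, 4 were higher with palmitate (23.5% of all genes) and 4 with linoleate (20.8%) at the adjusted p. After the GC trend was removed 3 were higher in each, again without a counted share of all genes. Of 3 genes of LXR partners and targets, 3 were lower at the adjusted p with palmitate (22.0% of all genes), and none stayed so with the GC trend removed. There Rxra read 0.18 (adjusted p = 0.0566), Rxrb turned to higher (0.23, 0.0425) and Lpcat3 read -0.07 (0.5). Vldlr, a receptor for triglyceride-rich lipoproteins, had an FPKM of 0.32 and 0.37 in Vehicle and 0.95 and 0.75 in PA, and 0.48 and 0.49 in PA+NTP. Its log2 fold change was 1.29 ± 0.23, SE, adjusted p = 0.000471 with palmitate and -0.85 ± 0.22, SE, adjusted p = 0.00592 with NTP over palmitate, at low levels throughout. On the log2(FPKM + 1) scale both were under the fold threshold (0.46 and -0.32). For PA against LA it was 0.78 ± 0.22, SE, adjusted p = 0.0373, a call lost without any one of the PA, LA or Vehicle libraries (adjusted p from 0.0552 to 0.178). Nus1, a subunit of the enzyme that makes dolichol precursors, was called higher with palmitate (0.68) and lower with NTP over palmitate (-0.64) and linoleate (-0.69). Cyb5r3 and Por, which pass electrons to the desaturases and to Cyp51 and Sqle, were called higher with NTP over linoleate (0.65 and 0.67), and Cyb5r3 lower with palmitate (-0.76). The other calls were Pdss2, a subunit of the synthase of the ubiquinone side chain, higher with palmitate (0.60), Gramd1c, a sterol transporter, higher with linoleate (0.61) and lower with NTP over palmitate and linoleate (-0.65 and -0.67), Vldlr (-0.63) and the oxysterol hydroxylase Cyp7b1 (-0.67), both lower with NTP over linoleate, and Cyp39a1, lower with NTP over palmitate (-0.59). Leaving out single libraries took Pdss2, Gramd1c in each of its comparisons, Vldlr with NTP over linoleate and Cyp39a1 with NTP over palmitate out of the called genes. Cyp39a1, an oxysterol hydroxylase of bile acid synthesis, was called lower in PA+NTP than in Vehicle (-0.66 ± 0.09, SE, adjusted p = 0.000342), and without the first Vehicle library was under the fold threshold (-0.57). With the GC trend removed Vldlr with palmitate changed by 1.32, Nus1 by 0.36 and Cyb5r3 by -0.51, the last pair under the fold threshold. So were Nus1 with NTP over palmitate and linoleate (-0.31 and -0.27), and Cyb5r3 and Por with NTP over linoleate (0.32 and 0.31). Pdss2 with palmitate (0.52), Gramd1c with NTP over palmitate (-0.36) and Cyp39a1 with NTP over palmitate (-0.31) fell under it as well. Gramd1c with linoleate (0.31, adjusted p = 0.0744) and with NTP over linoleate (-0.29, 0.058) and Cyp7b1 (-0.22, 0.0557) lost both thresholds.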

How the data were processed

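RNA sequencing of primary mouse hepatocytes was taken from the tables of 10 libraries in 5 groups, with replicates numbered as in the labels. The authors aligned reads to mm10 with HISAT and Bowtie2 and deposited, per gene, RSEM's expected count and the FPKM (scaled for length and library size). Genes under an FPKM of 0.01 in a library are not listed and were taken as 0. Total expected counts were 13142588 to 60046937.

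The test was that of edgeR 4.0.16 (R 4.3.3) on rounded expected counts (TMM, filterByExpr, quasi-likelihood F test, 5 groups as 1 factor, common coefficient of variation 0.0682). The study's own test, NOISeq, was not used here. The fold threshold of 1.5 follows its methods. At an unadjusted p under 0.05 in either direction, edgeR gave 7326 of all tested genes with PA and 6872 with LA. It gave 7211 in PA+NTP against PA, 8001 in LA+NTP against LA, 3476 in PA+NTP against Vehicle and 2014 in LA+NTP against Vehicle. It gave 3492 in PA against LA and 3965 in PA+NTP against LA+NTP. With the GC trend removed, shares of all genes were counted only with the fold threshold. On simulated data for PA against Vehicle (13887 genes, 200 changed), 195 were recovered with 3 false calls. The simulated libraries held no GC trend, unlike the real ones, so these counts do not give the false calls among the real genes. Alternatives used DESeq2 1.42.0 and limma 3.58.1. A GC trend was removed by loess (span 0.4), with a GC value for 95.1% of tested genes. Named genes were all 35 members, and the related and marker lists by the calls of their genes. One related gene is not reported here and was left out of the counts of its list. Members and lists were chosen with earlier results of these data known. The NTP dose was taken from the study's legend, since the labels give none.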

Additional observations from a re-analysis of the deposited data

Results flagged for a closer look

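Abcg8 differed between the fatty acids. Its change with palmitate minus its change with linoleate, both against the same Vehicle libraries, was -1.09 on the log2 scale (edgeR, SE 0.20, adjusted p = 0.00266), which equals the direct contrast of PA with LA. It was lower in 2 of 2 PA libraries than in either LA library. The doses of the fatty acids differed, and the hepatocyte marker sum was 2210 to 2440 in PA and 3150 to 3190 in LA. Of the markers in this sum, Alb, Ttr, Apoa1 and Hnf4a were lower at the adjusted p in PA than in LA. Asgr1, Tat, Cps1 and Cyp2e1 did not pass (-0.08, -0.37, -0.56 and 0.14). The part of the doses or of these markers was not tested.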

How the results depend on the processing

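Over 113 results for single genes, 1950 of 2260 values under alternatives kept their direction and side of the threshold, 306 lost the threshold and 4 reversed. The reversals came with the GC trend removed, in Mvk with LA (0.04) and in Idi1, Msmo1 and Sc5d with LA+NTP against LA (0.15, 0.18 and 0.0285). Among the counts of genes called, removal of the GC trend gave 3 lower with PA, 0 higher and 0 lower with LA, 0 higher in PA+NTP against PA and 2 higher in LA+NTP against LA. The adjusted p alone gave 7 higher and 12 lower with PA, 8 and 7 with LA, 7 and 10 in PA+NTP against PA, 12 and 5 in LA+NTP against LA, 4 lower in PA+NTP against Vehicle, 7 lower in PA against LA, and 1 higher and 16 lower in PA+NTP against LA+NTP. In limma on log2(FPKM + 1) the lower counts were 4 with PA and 0 in each of PA+NTP against Vehicle, PA against LA and PA+NTP against LA+NTP. On log2(FPKM + 0.1) PA+NTP against PA had 4 higher, PA+NTP against Vehicle 0 lower and PA+NTP against LA+NTP 2 lower. Library-size scaling gave 4 higher in PA+NTP against PA, no filter gave 3 lower in PA+NTP against Vehicle and 2 in PA against LA, and a fit of the compared groups alone gave 0 in the former. The log2(FPKM + 1) scale understates low genes by construction. The cause of the other moves was not tested.

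Leaving out single libraries gave 0 to 1 higher and 3 to 7 lower with PA, 1 to 2 higher with LA, 1 to 4 higher and 0 to 1 lower in PA+NTP against PA, 0 to 1 lower in PA+NTP against Vehicle, 1 to 2 lower in PA against LA and 1 to 4 lower in PA+NTP against LA+NTP. A group left with 1 library was assumed to vary like the others. Same-numbered libraries deviated together by correlations of -0.069 to 0.127 between group pairs, so the numbers were not taken to pair them. With the labels' numbers as a replicate block, none of the 113 results was lost. With the numbers of the deposited files, 10 were, and the block gave 6 lower with PA and 3 in PA+NTP against LA+NTP. Depth limits Abcg1, Mylip, Abcg5 and Abcg8 most.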
